A study of Mus musculus with 4 samples.

Results

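The translation initiation and elongation factors were examined as 1 gene family in testes of hypogonadal (hpg) mice. Members were all probe sets whose single gene symbol in the platform annotation begins with Eif and a digit, with Eef1 or Eef2, or with Pabpc, leaving out Eif2s3x, Eif2s3y and Eif1ax. The rule found 66 probe sets of 49 genes among 12422 probe sets on the array, and 47 of them, from 41 genes, passed the filter on dim probe sets. By its pattern the rule also takes in regulators that are not themselves factors, such as the eIF2 kinases, the eIF4E-binding proteins, the eEF2 kinase and a methyltransferase of eEF1A.

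Hpg mice make no gonadotropin-releasing hormone, so their testes see little androgen unless it is given. Total RNA from testis was measured on 4 arrays, 1 per sample, and the labels give no age, strain background or number of animals per sample. Every sample came from hpg mice that had received testosterone proprionate (the labels' spelling of the propionate ester) and had then been deprived of it. The group titled T+O has 1 array, with 2 weeks of testosterone proprionate before the withdrawal. The group titled T+T has 3 arrays. T+T replicate 1 is described as treated again with testosterone proprionate for 4 hours after the withdrawal, with no duration for the first treatment. The descriptions of T+T replicates 2 and 3 give 2 weeks of treatment and the withdrawal and mention no renewed treatment, so their place in T+T rests on their titles. The comparison implied by the titles is testis given androgen again against testis left without it.

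Protein synthesis starts when eIF2 brings the initiator tRNA to the small ribosomal subunit, with eIF1, eIF1A and eIF3 holding that subunit open, while the eIF4 proteins bind the mRNA cap and unwind the leader. eIF5 triggers GTP hydrolysis by eIF2 at the start codon and eIF5B then joins the large subunit. eEF1 delivers the following tRNAs, eEF2 moves the ribosome along, and the poly(A)-binding proteins tie the mRNA tail to the cap complex. In the testis, meiotic cells and spermatids store many mRNAs for later use, and control of translation is a known feature of spermatogenesis.

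The 4 arrays correlated at Pearson's r of 0.943 to 0.968 over the 7453 kept probe sets. Signal from the 3′ probe set over that from the 5′ one set T+O apart for 2 of 3 transcripts so covered: Gapdh, at 1.20 against 0.809 to 0.886 on the T+T arrays, and pyruvate carboxylase, at 3.76 against 1.76 to 2.00, but not Actb, at 1.53 against 1.17 to 1.66. Testis identity was as labelled: the summed signal of 10 spermatid markers was 33229 to 43246 on the 4 arrays, while that of 3 liver markers was 19.4 to 49.7 and that of 2 neuronal markers 4.03 to 9.12. The signals were multiplied by 1 factor per array to bring the arrays to a common mean after trimming, and differences are given as T+T minus T+O on the scale of log2(signal + 10). That scale understates the change of dim probe sets.

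No member passed the test (limma, Benjamini-Hochberg over all 7453 probe sets, threshold 0.05), where 0.0268% of all kept probe sets did, that is 2 probe sets. The lowest adjusted p among members was 0.16 in limma. The middle of the family lay where the rest of the array lay: the median log2 difference of the 47 kept members was 0.045 and that of all kept probe sets 0.026. Without scaling the arrays, the median of all kept probe sets moved to -0.16 and that of the members to -0.16. A difference above 0 was found for 26 members and one below 0 for 21, so that 55.3% lay above 0, where 53.7% of all kept probe sets did.

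The family was spread more to the low side than its middle shows. A gap of 1.5-fold or more below T+O in every T+T array was seen for 3 members, which is 6.38% of the 47, where 2.21% of all kept probe sets were. None was at least 1.5-fold higher on all 3, where 1.82% of all were. A log2 difference below -0.5 was found for 9 members (19.1%, against 8.52% of all kept probe sets) and one above 0.5 for 2 members (4.26%, against 6.98%). The 9 include both probe sets of Eif1a. Of the 2 higher ones, Eef2k had a T+O signal under the filter level and was kept through its T+T signals. At an unadjusted p under 0.05 in limma were 7 members (14.9%, against 7.8% of all kept probe sets), of which 6 were lower (12.8%, against 4.23%) and 1, Eif2b2, was higher (2.13%, against 3.57%). T+O lay above all 3 T+T arrays for 17 members (36.2%, against 23.7% of all) and below all 3 for 13 (27.7%, against 29.5%). The 13 include Eef2k, Eif5a and the dimmer Eif2d probe set, whose T+O signals were under the filter level. They were kept through their T+T signals. Within 0.25 of 0 on the log2 scale were 24 members (51.1%, against 57.8%). These shares are descriptions, since the members are neither independent of each other nor replicates.

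**Figure D1:**
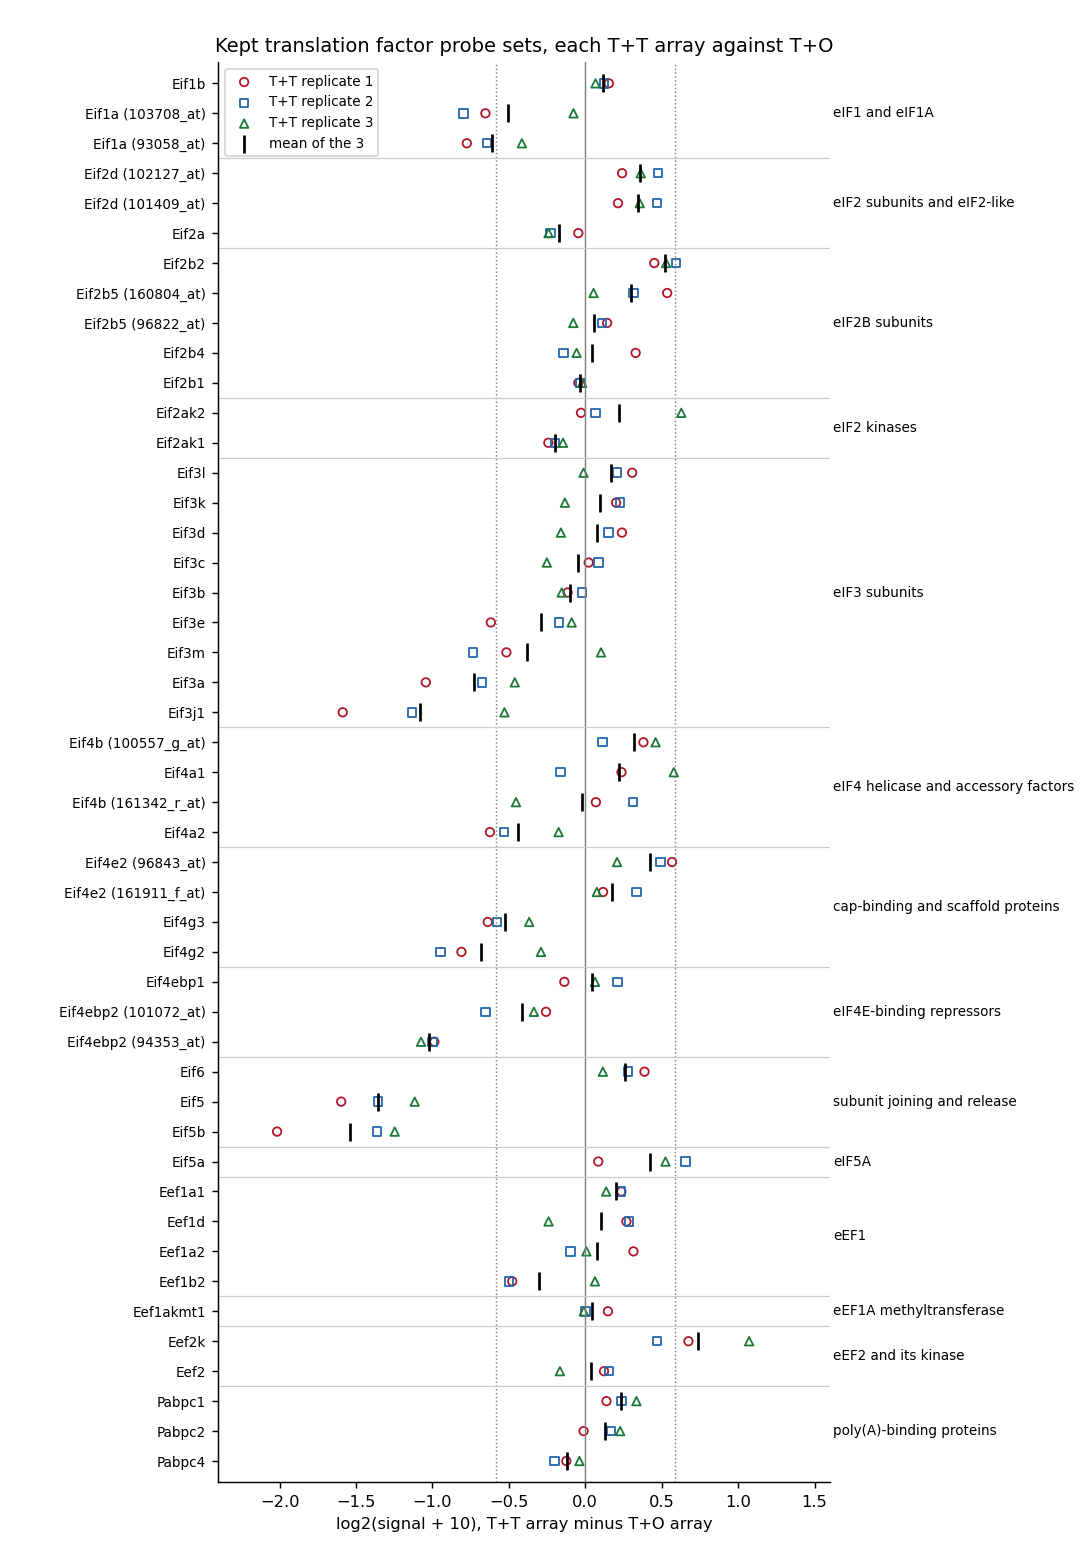
Difference of each T+T array from the T+O array, on the scale of log2(signal + 10), for the 47 kept probe sets, grouped by role. Open symbols are the 3 T+T arrays, the bar is their mean and dotted lines mark 1.5-fold. Eif5, Eif5b and 1 Eif4ebp2 probe set lie beyond the lower line on all 3 arrays, and most eIF2B, eIF3 and eEF probe sets lie between the lines.

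The factors that act at the end of initiation had the widest gaps. Eif5, the factor that makes eIF2 hydrolyse its GTP at the start codon, gave scaled signals of 503 for T+O and of 160, 190 and 227 for T+T replicates 1, 2 and 3. All 3 T+T arrays lay far below T+O and close to each other, with a mean of 192 ± 33.6 (SD, n = 3). The log2 difference was -1.36 (standard error, SE, 0.23, and adjusted p = 0.16 in limma), or 2.62-fold lower by the ratio of means. Eif5b, the GTPase that joins the large ribosomal subunit, had 202 in T+O and 42.4, 72.6 and 79.4 in T+T. T+O again lay above all 3 T+T arrays, as it did for 23.7% of all kept probe sets, and T+T replicate 1 was the lowest. The log2 difference was -1.54 (SE 0.33, with adjusted p = 0.26 in limma). A second Eif5b probe set, too dim for the filter, had 23.5 in T+O and 5.75, 6.77 and 9.27 in T+T. Eif6, which keeps free large subunits from joining, lay on the other side with 219 in T+O and 289, 267 and 238 in T+T, or a log2 difference of 0.26 (SE 0.20).

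Whether Eif5 and Eif5b are called depended on 1 array, though their gaps were no wider without it. With T+T replicate 1 left out, the SE was 0.23 for Eif5 and 0.27 for Eif5b, against 0.23 and 0.33 on all arrays. That fit takes its spread from T+T replicates 2 and 3 and from the other probe sets. A lower adjusted p there is therefore no sign of a larger difference or of a firmer call. For Eif5 the difference was smaller there, and its SE no lower, than on all arrays. Without T+T replicate 1, the adjusted p in limma was 0.0057 for Eif5 and 0.014 for Eif5b, where 0.845% of all kept probe sets passed (0.510% lower and 0.335% higher), and the log2 differences were -1.24 and -1.30. Without T+T replicate 2 no member passed (0.161% of all kept probe sets did, 0.107% lower and 0.0537% higher), and none without T+T replicate 3 (0.0134%, all higher). Over all settings run with a test, the adjusted p ranged from 0.0057 to 1.0 for Eif5 and from 0.014 to 1.0 for Eif5b in limma. Both were below 0 under every one of the 14 other settings, with log2 differences from -1.60 to -0.77 for Eif5 and from -2.02 to -1.15 for Eif5b. The Gapdh and pyruvate carboxylase ratios set the T+O array apart from all 3 T+T arrays in the same way as these 2 genes do, and their part in the result was not tested.

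For some lists, the summed signal of cell type markers on T+O also lay outside the range of the 3 T+T arrays. That is common with 1 T+O array. Among all kept probe sets, T+O lay above all 3 T+T arrays for 23.7% and below all 3 for 29.5%. Summed signals were 431 on T+O and 520 to 536 on T+T for 5 peritubular myoid markers, 343 and 415 to 438 for 6 macrophage markers, 217 and 233 to 316 for 6 endothelial markers, and 2343 and 2401 to 2714 for 9 Sertoli markers. For 6 spermatogonia markers T+O had 598 and T+T 533 to 594. Red blood cell markers, 2 in all, had 412 and 421 to 439. The spermatid sum (34068 on T+O), the meiotic sum (7831 against 7499 to 9199, 6 markers) and the Leydig sum (351 against 310 to 395, 7 markers) on T+O lay within the T+T range. These sums follow their brightest genes and hide single markers. By log2 difference, 4 kept meiotic markers lay above 0 and 1 below, and 7 Sertoli markers above and 1 below. Of the spermatogonia markers 2 lay above and 3 below, where 53.7% of all kept probe sets lay above. The markers named next are the lowest of these lists. Of 49 kept markers 3 were 1.5-fold or more below T+O in every T+T array (6.12%, against 2.21% of all kept probe sets), as Eif5 and Eif5b were, and 0 were as far above. Sycp1, a protein of the synaptonemal complex of meiotic cells, had 390 in T+O and 13.5, 38.5 and 36.2 in T+T, and its log2 difference of -3.42 (SE 0.42, with adjusted p = 0.11 in limma) was the lowest of all 7453 kept probe sets. Dazl, an RNA-binding protein of germ cells that acts on translation, had 166 against 63.5, 79.2 and 103, a log2 difference of -0.96. Kitl, the Sertoli cell ligand of the receptor Kit, had 49.9 against 14.4, 12.6 and 17.4, a log2 difference of -1.28. The T+T signals of Kitl were all under the filter level, and it was kept only through its higher T+O signal. Kitl therefore adds no support to the count of lower markers. In whole testis, fewer cells of a type and less RNA per cell cannot be told apart, and the part of cell composition and of what sets these 3 markers apart in the differences of the factors was not tested.

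**Figure D2:**
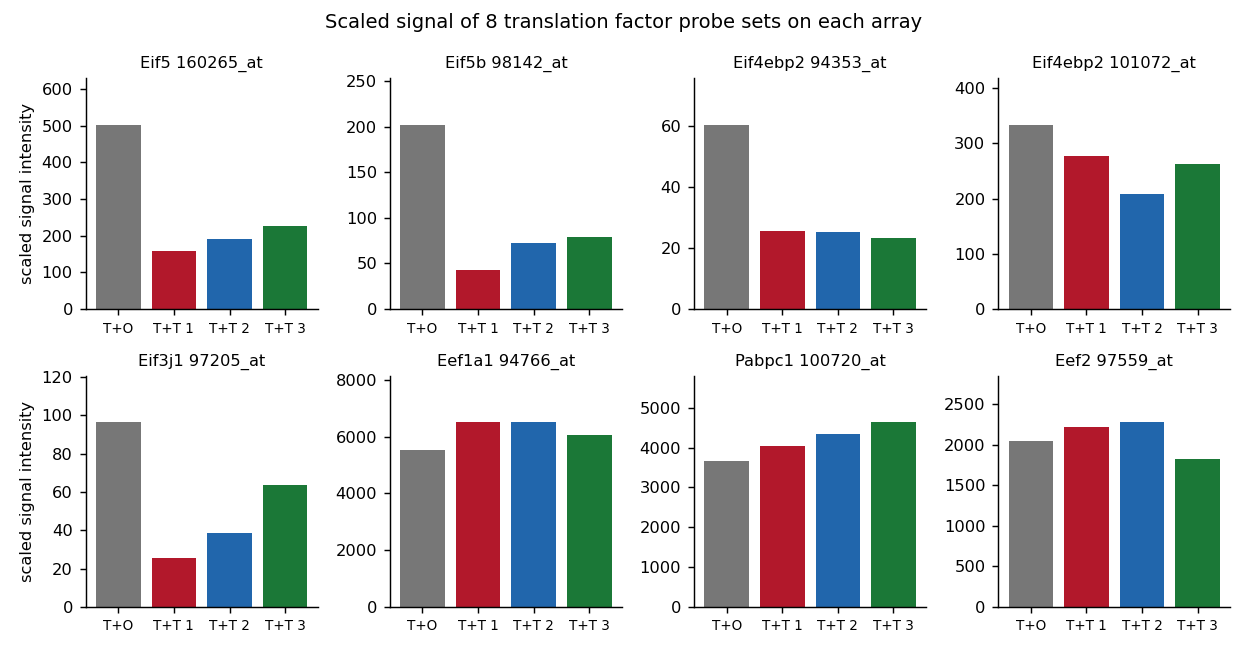
Scaled signal intensity, from 0, of 8 probe sets on the T+O array and T+T replicates 1, 2 and 3. Each bar is 1 array. Eif5 stands at 503 on T+O and at 160 to 227 on T+T, while Eef1a1 stands at 5526 and 6075 to 6509, a gap that turned below 0 after quantile scaling and without scaling.

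Eif4ebp2, which encodes a repressor that binds eIF4E and blocks cap recognition, lay lower on both of its kept probe sets, but to different degrees. The first had 60.5 in T+O and 25.5, 25.2 and 23.5 in T+T. The 3 T+T signals were nearly equal, at 24.7 ± 1.12 (SD, n = 3), and stood just above the filter level of 22.7. The log2 difference was -1.02 (SE 0.32, with adjusted p = 0.45 in limma). The brighter probe set had 334 in T+O and 278, 209 and 262 in T+T, or a log2 difference of -0.42 (SE 0.22). Its remaining probe set lay between 2.99 and 6.23 on all arrays. Eif4ebp1, the best studied of these repressors, had 32.7 in T+O and 28.9, 39.4 and 34.7 in T+T, with T+O inside the T+T range. Eif4enif1, the protein that carries eIF4E into the nucleus, had 3.58 to 8.49 and was not kept.

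The RefSeq promoter table (GRCm38.p6) held an annotated start for 39 of the 49 member genes. Many mRNAs for ribosomal proteins and translation factors are known to begin with a run of pyrimidines, through which mTOR signalling controls their translation. The start windows of the 4 genes with the lowest log2 differences on any kept probe set are shown, Eif4ebp2 by its dimmer kept one. Those of Eef1a1 and Eif3l are added only as examples of a run, and the windows make no comparison of groups. Both of these carry a run near the annotated start, though none that begins exactly at it. Each window holds 15 bases before and 15 after the annotated start, 5′ to 3′ on the gene's strand, and capitals mark a C followed by at least 4 further C or T letters that begins within 10 bases of the start:
Eif5, chr12:111538086-111538115, plus strand: gagatcgacgtgcatgcgagccaatgacaa
Eif5b, chr1:37997995-37998024, plus strand: ggcgcctgggttcccacctggccggcggct
Eif3j1, chr2:122028565-122028594, plus strand: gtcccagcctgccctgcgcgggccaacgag
Eif4ebp2, chr10:61452655-61452684, minus strand: ggtatcgcagcgggacgaccgggcgagagc
Eef1a1, chr9:78481710-78481739, minus strand: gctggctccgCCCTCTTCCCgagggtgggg
Eif3l, chr15:79075208-79075237, plus strand: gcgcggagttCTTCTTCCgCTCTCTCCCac

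No such run lies in the windows of Eif5, Eif5b, Eif3j1 and Eif4ebp2. On the gene's own strand, 13 of the 39 matched member genes had a run (33.3%), close to the 34.9% of 17492 protein-coding genes in the table. A run that begins exactly at the annotated start was found for 1 of the 39 (2.56%, against 2.67%), and for 0 kept genes. The runs counted here are therefore near the start and need not open the mRNA. Among kept members, each gene taken at its brightest probe set, the 8 genes with a run had a median log2 difference of 0.18, from -0.20 to 0.52. The 24 without one had a median of -0.040, from -1.54 to 0.74. An annotated start can be some bases away from the one used in testis, so a window without a run says only that these letters are not there.

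Most subunits of eIF3, the large scaffold on the small ribosomal subunit, were close to their T+O level. Eif3c had 1753 in T+O and 1780, 1863 and 1471 in T+T, and Eif3b 1277 against 1178, 1258 and 1147. Eif3d, Eif3k and Eif3l had log2 differences of 0.077, 0.098 and 0.17, which became -0.13, -0.11 and -0.043 without scaling, with T+O within the T+T range in each case. Eif3l, for instance, had 961 in T+O and 1191, 1111 and 953 in T+T.

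The lowest of the eIF3 genes was Eif3j1, which encodes the loosely bound subunit that helps the ribosome come apart and take up the next mRNA. It had 96.4 in T+O and 25.4, 38.5 and 63.7 in T+T. Its T+T arrays were all lower but wide apart, and the log2 difference was -1.08 (SE 0.40, with adjusted p = 0.57 in limma). Eif3a, the largest subunit, had 58.3 against 23.1, 32.8 and 39.6, a log2 difference of -0.73 (SE 0.34). Eif3e had 115 against 71.2, 101 and 107, and Eif3m 369 against 255, 218 and 397. For Eif3m the T+T array of replicate 3 lay above T+O and the other two below it. The 9 kept eIF3 probe sets had a median log2 difference of -0.097, against 0.026 for all kept probe sets, with 3 above 0 and 6 below.

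For the factors that scan for the start codon, the eIF1 genes parted. Eif1a, which keeps the scanning ribosome open, lay lower on both probe sets: 111 in T+O against 60.7, 67.5 and 80.8 in T+T on the first, and 68.9 against 40.1, 35.4 and 64.7 on the second. The log2 differences were -0.61 (SE 0.25) and -0.51 (SE 0.34), with adjusted p of 0.60 and 0.79 in limma. Eif1b, a close relative of eIF1 that monitors start codon choice, had 1166 against 1299, 1271 and 1222. Its T+T arrays were tightly grouped at 1264 ± 38.7 (SD, n = 3), and the log2 difference of 0.11 became -0.096 without scaling.

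The eIF2 branch, which supplies the initiator tRNA and is the main point of stress control, held the 1 member that was higher at an unadjusted p under 0.05. Eif2b2, the beta subunit of the exchange factor that reloads eIF2 with GTP, had 103 in T+O and 144, 160 and 153 in T+T, or a log2 difference of 0.52 (SE 0.20, with adjusted p = 0.58 in limma). The other eIF2B subunits were flatter. Eif2b1 had 146 against 141, 143 and 144, a log2 difference of -0.033. Eif2b4 had 335 against 424, 302 and 322. Eif2b5, the catalytic subunit, had 153 against 227, 193 and 160 on 1 probe set and 398 against 440, 430 and 376 on the other, log2 differences of 0.30 and 0.058, of which the second became -0.15 without scaling.

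Of the factors that can deliver a tRNA without eIF2, Eif2d lay above 0 and Eif2a below, and neither passed the test. Eif2d was above T+O on both probe sets and all 3 arrays, with 66.9 against 79.1, 96.5 and 88.4 on the brighter one and 17.8 against 22.9, 28.7 and 25.8 on the other. The log2 differences were 0.35 and 0.36 (SE 0.23 and 0.37). The dimmer probe set had a T+O signal under the filter level of 22.7 and was kept only through its higher T+T signals, so it adds no support. Eif2a had 33.6 against 32.2, 27.2 and 26.9, a log2 difference of -0.17 (SE 0.33). Of the kinases that shut eIF2 down, Eif2ak1, which senses haem, had 124 against 103, 107 and 111. Eif2ak2, which senses double-stranded RNA, had 27.5 against 26.8, 29.3 and 48.0, so that only replicate 3 stood off. The endoplasmic reticulum stress kinase Eif2ak3 and the amino acid sensor Eif2ak4 had 8.23 to 16.3 and 1.33 to 23.8 over the 4 arrays and were not kept.

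Among the proteins that bind the cap and the leader, the scaffolds lay below T+O and the cap-binding relative Eif4e2 above it. Eif4g3, a scaffold whose loss is known to arrest male meiosis in mice, had 201 in T+O and 126, 132 and 154 in T+T. T+O lay above all 3 T+T arrays, as it did for 23.7% of all kept probe sets. The log2 difference was -0.53 (SE 0.21, with adjusted p = 0.60 in limma). Eif4g2, a scaffold that lacks the eIF4E contact, had 83.8 against 43.5, 38.6 and 66.7, a log2 difference of -0.68 (SE 0.32). Eif4e2, which binds caps but represses translation, had 89.8 against 138, 130 and 105 on 1 probe set and 73.0 against 79.9, 94.6 and 77.4 on another whose name marks possible cross-hybridisation in a gene family. Their log2 differences were 0.42 and 0.18, and the second became -0.011 without scaling. Eif4e itself, the main cap-binding protein, was dim on both of its probe sets, at 2.19 to 19.8, and was not kept.

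The helicase genes differed in sign, though for Eif4a1 the T+O signal lay inside the T+T range. The kept probe sets of Eif4a1 and Eif4b have names with an added letter, not plain ones, as have those of Eef1b2 and Eif2b4. Eif4a2 had 340 in T+O against 217, 232 and 300 in T+T, or a log2 difference of -0.44 (SE 0.23), and Eif4a1 had 115 against 138, 102 and 177, a log2 difference of 0.22 (SE 0.29). The cofactor Eif4b was read by 2 kept probe sets that differed in sign, at 123 against 163, 134 and 173 and at 43.2 against 45.8, 56.0 and 28.8. Their log2 differences were 0.32 and -0.024. Close copies such as Eif4a1 and Eif4a2, Eif1a and Eif1ax, or Pabpc1 and Pabpc2 can share signal on these arrays, which was not tested. A further pair of Eif4b probe sets and the one for Eif4h lay below the filter.

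The elongation factors that carry tRNA and move the ribosome lay close to their T+O level. Eef1a1, which carries aminoacyl-tRNA to the ribosome, had 5526 in T+O and 6509, 6505 and 6075 in T+T. The 3 T+T arrays lay 1.15-fold above T+O by the ratio of means, a log2 difference of 0.20 (SE 0.17), which became -0.053 after quantile scaling and -0.0093 without scaling. Eef1a2, its relative in muscle and neurons, had 77.6 against 98.9, 71.9 and 78.0. Of the subunits that recharge eEF1A, Eef1d had 963 against 1162, 1176 and 814 and Eef1b2 had 55.5 against 37.0, 36.4 and 58.4, both with T+O inside the T+T range. Eef1g lay at 0.915 to 8.63 and was not kept.

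Eef2, the translocase, had 2045 in T+O and 2227, 2280 and 1822 in T+T, or a log2 difference of 0.037 (SE 0.19) that became -0.035 after quantile scaling and -0.17 without scaling. Its inhibitor kinase Eef2k had the largest difference above 0 of the kept members, with 16.4 in T+O against 32.1, 26.5 and 45.4 in T+T. The T+O signal was under the filter level, and the log2 difference of 0.74 (SE 0.38) did not pass (limma, adjusted p = 0.71). Eif5a, a factor that relieves stalled ribosomes, had 15.9 against 17.5, 30.8 and 27.3, a log2 difference of 0.42 (SE 0.41), and its T+O signal too was under the filter level. Eef1akmt1, a methyltransferase of eEF1A, had 39.5 against 44.9, 39.5 and 39.2.

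Poly(A)-binding protein genes had log2 differences from -0.12 to 0.24. Pabpc1, the main cytoplasmic form, had 3676 in T+O and 4048, 4333 and 4638 in T+T, or a log2 difference of 0.24 (SE 0.17, with adjusted p = 0.81 in limma). Pabpc2, an intronless form made in spermatogenic cells, had 1863 against 1848, 2096 and 2184, a log2 difference of 0.13 that became -0.082 without scaling. Pabpc4 had 48.3 against 43.5, 40.7 and 46.7 on its kept probe set, a log2 difference of -0.12.

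**Figure D3:**
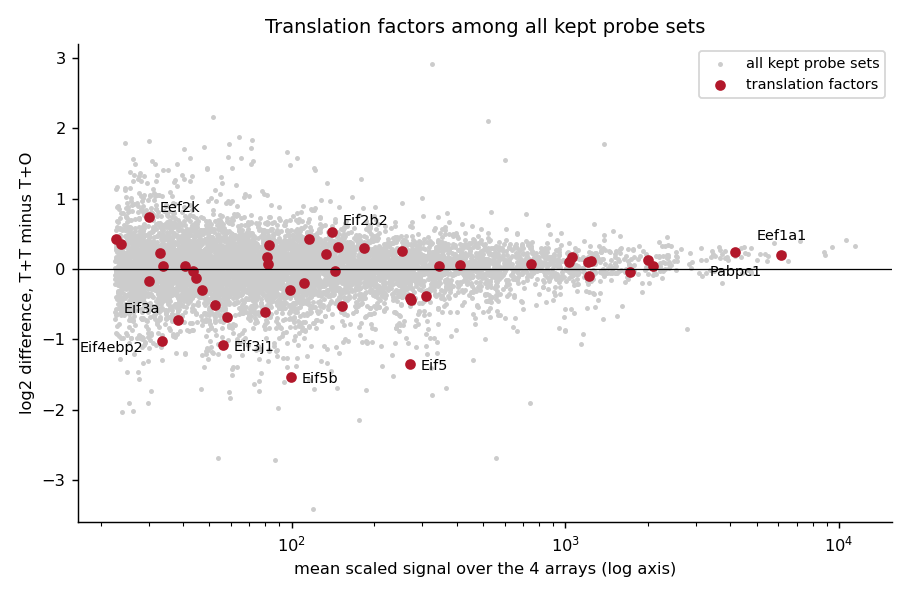
Mean scaled signal over the 4 arrays (log axis) against the log2 difference T+T minus T+O for all 7453 kept probe sets (grey) and the 47 kept members (red). The 11 members with a mean signal of at least 500 lie between -0.097 and 0.24, and the members labelled Eif5 and Eif5b lie lowest at -1.36 and -1.54.

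The wide gaps were found among probe sets of middling and low signal. The 11 kept members with a mean signal of at least 500 (Eef1a1, Pabpc1, Eef2, Pabpc2, Eif3c, Eif1b, Eif3k, Eif3b, Eif3l, Eef1d and Eif3d) had log2 differences from -0.097 to 0.24, with a median of 0.10. Over all 714 kept probe sets of such signal the median was 0.067 and the quartiles -0.070 and 0.19. The 36 members under that level ranged from -1.54 to 0.74 with a median of -0.029, and the quartiles were -0.46 and 0.23. All 6739 kept probe sets under that level had quartiles of -0.20 and 0.22.

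The 19 member probe sets that the filter left out had a mean signal of at most 22.2, and 8 genes were represented by such probe sets alone: Eef1g, Eif2ak3, Eif2ak4, Eif2s2, Eif3f, Eif4e, Eif4enif1 and Eif4h. Eif3f, for example, had 13.4 in T+O and 38.6, 11.7 and 10.1 in T+T. Eif2s2, the beta subunit of eIF2, had 15.4 in T+O, inside the T+T range, against a T+T mean of 15.7 ± 4.80 (SD, n = 3) on its brighter probe set. Dim probe sets did not always go with the kept one of their gene. Pabpc4 had 4.48 in T+O and 13.9, 18.2 and 11.8 in T+T on its dim probe set, where the kept one had a log2 difference of -0.12. Eef1b2 had 2.74 against 9.78, 3.58 and 19.3 on its dim one, where the kept one had -0.30. For 6 of the 14 genes with several probe sets, more than 1 probe set was kept. The kept probe sets agreed in sign for Eif1a, Eif2b5, Eif4e2 and Eif4ebp2, and differed for Eif4b. Those of Eif2d had the same sign, but the dimmer was kept only through its T+T signals and adds no support. Without scaling, the signs differed for Eif2b5, at 0.10 and -0.15, and for Eif4e2, at 0.23 and -0.011.

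Other genes of the translation pathway were read from 5 lists that hold 85 symbols, of which 52 genes had a kept probe set. None passed the test in either direction, none was at least 1.5-fold to 1 side on all 3 T+T arrays (4.04% of all kept probe sets were), and at an unadjusted p under 0.05 in limma 3 were lower and 0 higher. The 3 lower genes are 5.77% of the 52, near the 4.23% of all kept probe sets that were lower, and 3.57% of all were higher. The median log2 difference over the 52 genes was -0.078. Read against the 53.7% of all kept probe sets above 0, 1 of 6 termination and recycling genes lay above 0 and 5 below, with a median of -0.30. Abce1, which splits ribosomes after termination, had 120 in T+O and 61.1, 58.9 and 84.7 in T+T, or a log2 difference of -0.75 (SE 0.27, with adjusted p = 0.52 in limma). The release factor Etf1 had 403 against 193, 271 and 348. The rescue factor Pelo was the highest of this list, with 70.4 against 90.8, 80.1 and 76.7.

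The list for the control of initiation had 19 kept genes, 6 above 0 and 13 below, and a median of -0.13. Its lowest gene was Pdcd4, an inhibitor of the eIF4A helicase, with 443 in T+O and 199, 287 and 314 in T+T, or a log2 difference of -0.73 (SE 0.26, with adjusted p = 0.53 in limma). Its highest was Mknk1, the kinase of eIF4E, with 82.1 against 116, 107 and 102. The kinase Mtor had 599 against 536, 569 and 531, and Atf4, the transcription factor made when eIF2 is inhibited, had 160 against 139, 168 and 163. Of 21 aminoacyl-tRNA synthetase genes 9 lay above 0 and 12 below, with a median of -0.061. Eprs, the glutamyl-prolyl enzyme, was lowest with 104 against 39.5, 42.2 and 70.9, a log2 difference of -0.94 (SE 0.33, with adjusted p = 0.51 in limma), and Sars, the seryl enzyme, was highest with 75.3 against 126, 105 and 85.2.

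The factors of mitochondria had 4 kept genes with a median of 0.31. Gfm1, the mitochondrial translocase, had 45.0 in T+O against 62.9, 72.6 and 51.1 in T+T, and Mtif2, the mitochondrial initiation factor, had 105 against 71.1, 81.9 and 111. Only 2 genes were kept from the list of enzymes that modify eIF5A and eEF2. Dohh, which completes hypusine on eIF5A, had 110 against 142, 146 and 114. Dph5, which helps make diphthamide on eEF2, had 46.9 against 20.2, 27.9 and 30.2.

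**Figure D4:**
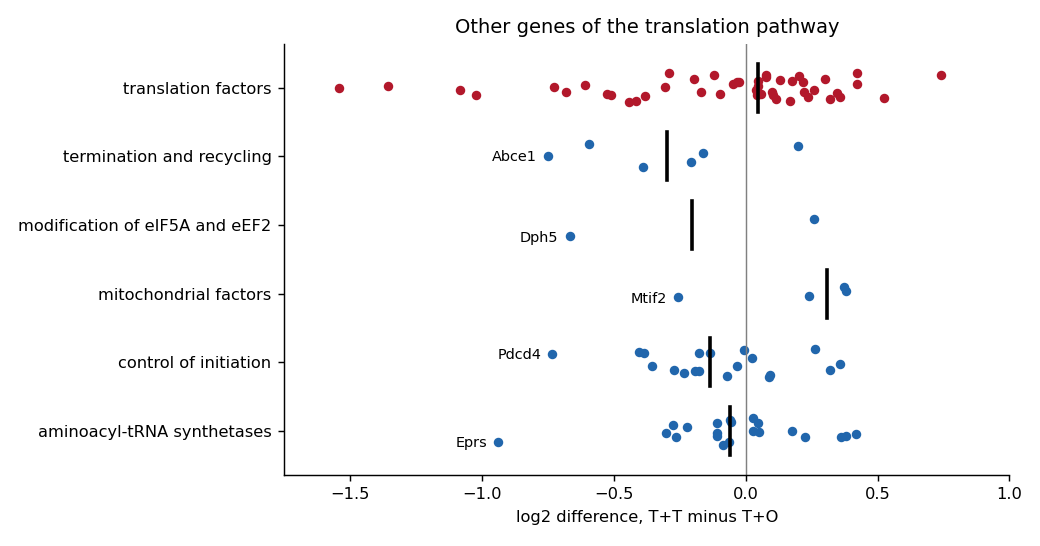
Log2 difference T+T minus T+O of the 47 kept translation factor probe sets (red) and of 52 other genes of the pathway in 5 lists (blue), 1 point per probe set, with the median of each row as a bar and the lowest gene of each list named. List medians lie between -0.30 and 0.31, and the lowest points are those of the factors.

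The pair of arrays whose titles and descriptions match, T+T replicate 1 and T+O replicate 1, were also compared alone, with no replicate check. On this single T+T array 11 members were 1.5-fold or more below T+O (23.4%, against 11% of all kept probe sets) and 1, Eef2k, at least 1.5-fold higher (2.13%, against 6.83%). The lower ones were Eif5b at -2.02 on the log2 scale, Eif5 at -1.60, Eif3j1 at -1.59, Eif3a at -1.04, Eif4ebp2 at -0.99, Eif4g2 at -0.81, both Eif1a probe sets at -0.77 and -0.65, Eif4g3 at -0.64, Eif4a2 at -0.62 and Eif3e at -0.62. Without T+T replicate 1, 3 members were at least 1.5-fold lower on both other T+T arrays (2.72% of all kept probe sets) and 0 higher (2.97%). Without T+T replicate 2 there were 3 lower (2.66%) and 1 higher, Eef2k (2.92%). Without T+T replicate 3, 8 members were at least 1.5-fold lower on both other T+T arrays (17.0%, against 5.65% of all kept probe sets), adding Eif3j1, Eif3a, Eif4g2 and both Eif1a probe sets to Eif5, Eif5b and Eif4ebp2, and 0 were higher (3.11%).

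By the descriptions instead of the titles, T+T replicates 2 and 3 join T+O as withdrawn testis and T+T replicate 1 stands against 3 arrays. No member passed in limma (lowest adjusted p = 0.92), and 2, Eif3j1 and Eif5b, had an unadjusted p under 0.05, or 4.26% against 5.1% of all kept probe sets. Eif5b alone was 1.5-fold or more below every other array there (2.13%, against 2.09% of all) and no member was as far above (0.657% of all). Eif5b had a log2 difference of -1.15 (SE 0.50). Under this reading the T+O array is the one that stands off for Eif5, since T+T replicates 2 and 3, at 190 and 227, lie near replicate 1 at 160.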

How the data were processed

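Each of the 4 samples was 1 one-colour array, with 3 T+T arrays and 1 T+O array by title. The authors deposited 1 linear signal intensity for each probe set and array, with software not given in the sources used here. From these, 66 control probe sets were left out, arrays were scaled to a common mean after trimming 2% at each end (factors 0.915, 1.15, 1.33 and 0.779), 10 was added (the 25th percentile) and log2 taken. Probe sets with a mean signal above 22.7, the 40th percentile, were kept (7453 of 12422). limma 3.58.1 in R 4.3.3 (lmFit, eBayes with an intensity trend, two-sided) compared T+T with T+O over all kept probe sets with Benjamini-Hochberg adjustment and 2 residual degrees of freedom. With 1 array in T+O, its spread was taken to be that of T+T. For the grouping by title, the spread behind the p-values is that among the 3 T+T arrays, with a share taken from the other probe sets. Nothing in the labels says that the samples came from separate animals. The p-values therefore need not measure a spread between animals, and the number of arrays limits the precision.

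Gene symbols came from the platform annotation, updated by gene ID through RefSeq (GRCm38.p6), which held 10817 of 10833 probe sets with 1 symbol. A further 396 had several symbols and 1193 are unnamed here. No genome build is named for the values. By rule, the text names members past the threshold or 1.5-fold to 1 side in every T+T array, the highest and lowest kept probe set of each role, all kept probe sets of genes with several, further listed genes where measured, and the highest and lowest gene of each pathway list. Named beyond that rule, with their values seen, were Eif3a, Eif3b, Eif3c, Eif3d, Eif3e, Eif3f, Eif3k, Eif3m, Eif2b4, Eif2s2, Eif4a1, Eif4enif1, Eif4h, Eef1d, Eef1g, Etf1, Mtor and Atf4, and the cell type markers Sycp1, Dazl and Kitl. The members and lists were chosen with earlier results of these data known. Alternatives covered scaling, offset, filter, variance trend, each T+T array left out and the grouping.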

Additional observations from a re-analysis of the deposited data

How the results depend on the processing

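No paired analysis was possible because T+O has a single array, so the groups share 1 replicate number only. The setting that keeps only probe sets with plain names was chosen after seeing the data. The number of members past the threshold in limma was 0 under every setting with a test except without T+T replicate 1, and leaving out 1 T+T array gave 0 to 2. The 3 members at least 1.5-fold to 1 side on all T+T arrays became 4 with median scaling (adding Eif3j1), 2 with the filter at the 60th percentile (losing Eif4ebp2), 5 with an offset of 1 (adding Eif3j1 and Eef2k), 5 with no filter (adding the second probe sets of Eif5b and Pabpc4), 12 for T+T replicate 1 against T+O replicate 1 only, 1 with T+T replicate 1 set against the other 3 arrays, and 3 to 8 when 1 T+T array was left out. The median log2 difference of 0.045 became -0.16 without scaling, -0.0051 without T+T replicate 1, 0.014 without T+T replicate 2, 0.074 without T+T replicate 3 and -0.028 with T+T replicate 1 set against the other 3 arrays.

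Over all 47 kept members and the settings run, signs turned for these. After quantile scaling, Eef1a1 became -0.053 and Eef2 -0.035. Without scaling, Eif4e2 (second probe set) became -0.011, Eef1a1 -0.0093, Eef1a2 -0.11, Eef1akmt1 -0.12, Eef1d -0.11, Eef2 -0.17, Eif1b -0.096, Eif2b4 -0.16, Eif2b5 (brighter probe set) -0.15, Eif3d -0.13, Eif3k -0.11, Eif3l -0.043, Eif4ebp1 -0.11 and Pabpc2 -0.082. With T+T replicate 1 set against the other 3 arrays, Eif4e2 (second probe set) became -0.020, Eif2ak2 -0.26, Eif2a 0.11, Eif2d -0.061 and -0.038, Eif3c 0.077, Eif4b (second probe set) 0.12, Eif4ebp1 -0.23, Eif4ebp2 (brighter probe set) 0.072, Eif5a -0.31, Pabpc1 -0.052 and Pabpc2 -0.14. For T+T replicate 1 against T+O replicate 1 only, Eif2ak2 became -0.028, Eif3c 0.022, Eif4b (second probe set) 0.069, Eif4ebp1 -0.14 and Pabpc2 -0.012. Leaving out 1 T+T array turned Eef1a2 (-0.045 to 0.16), Eef1akmt1 (-0.0043 to 0.074), Eef2 (-0.022 to 0.14), Eif2b4 (-0.10 to 0.14), Eif3c (-0.11 to 0.055), Eif3d (-0.0044 to 0.20), Eif4ebp1 (-0.037 to 0.14) and Eif4b (second probe set, -0.19 to 0.19). The cause was not tested.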
